A study of Mus musculus with 32 samples.

Results

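Wild-type (WT) brown adipose tissue of 2 mouse lines was compared. The arrays were chosen by sample title, 8 from WT mice of the ChREBPβ line and 8 from WT mice of the total ChREBP line, which makes 16 of the 32 arrays of the series. No mouse on either side carried a deletion. In the ChREBPβ line, affected littermates lack exon 1b of Mlxipl, which CRISPR/Cas9 editing removed in C57BL6/J embryos. In the total ChREBP line, affected littermates are Mlxipl-null and lack both isoforms of the transcription factor. Per the study's methods the arrays came from male C57BL6/J mice. All mice went without food for 24 hours and then had food and water with 20% glucose for 18 hours. Ages, the time of day of tissue collection and whether the lines were bred and dissected together are not given in the sources used here. The 8 knockout (KO) arrays of each line were used as a second comparison of the lines, since they share no array with the WT comparison. That comparison also carries the different deletions of the lines.

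Brown adipose tissue burns fatty acids to make heat through Ucp1, the mitochondrial uncoupling protein, under the control of regulators such as Prdm16 and Ppargc1a. The interscapular pad lies against skeletal muscle, and brown adipocytes and myocytes share developmental ancestry. ChREBP is a glucose-responsive transcription factor that drives genes of fatty acid synthesis. The tissue also holds a circadian clock, in which Arntl and Clock activate Per, Cry and Nr1d genes that feed back on them. They also activate output genes such as Dbp.

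Values are log2 intensities of the deposited normalised table, and the brightest probe stands for its gene unless said otherwise. Differences are ChREBPβ-line WT minus total-line WT. A gene was called when its Benjamini-Hochberg adjusted p, from a limma fit over all probes, was under 0.05. Of 24521 gene names, 11287 had at least 1 called probe, which is 46% of those tested. By the brightest probe, 38.9% were called, 24.7% higher and 14.2% lower in the ChREBPβ line. Most of these differences were small, with a median size of 0.33 among called probes. At 1.5-fold or more 2368 genes were called. At 2-fold or more, 178 genes were higher and 708 were lower, and at 8-fold or more 0 were higher and 154 were lower. The groups did not overlap for 2318 genes, or 9.45%. On the 16 arrays, 65.5% to 71.1% of spots had a signal well above background, and 0 spots were saturated.

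Mlxipl itself was examined first. Its brightest probe, at chr5:135613705-135613764 of mouse build mm9, lay between 16.14 and 16.58 (median 16.32) in ChREBPβ-line WT and between 15.95 and 16.31 (median 16.16) in total-line WT. Both WT groups lay above the KO arrays of their line, which reached at most 15.01 in ChREBPβ KO and 13.86 in total ChREBP KO. The WT groups overlapped, and the difference was 0.21 ± 0.07 (SE, n = 8 and 8, limma adjusted p = 0.0126), with all 3 probes called higher. It was 0.06 in wash batches 1 and 2 (adjusted p = 0.648) and 0.365 in batches 3 and 4 (adjusted p = 0.00456), so the call rested on the latter arrays, although the difference between these values was not itself called (adjusted p = 0.256). Among its neighbours on chromosome 5, Tbl2 was 0.27 higher (adjusted p = 0.00126) and Fzd9, a Wnt receptor, differed by -3.92 (adjusted p = 1.36e-11). Fzd9 ranged from 4.59 to 6.49 in the ChREBPβ line and from 7.28 to 10.16 in the total line. Within groups its level rose with muscle signal, as given with the covariates below. Bcl7b, Dnajc30, Baz1b, Vps37d and Stx1a did not pass the test.

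The largest differences were in genes of skeletal muscle. All 22 genes of the fast muscle list were called lower in ChREBPβ-line WT, against 14.2% of all genes. Their median difference was -5.94 against 0.05 over all genes. Of them, 18 did not overlap between the groups, against 9.45% of all genes. Actin of skeletal muscle, Acta1, ranged from 7.37 to 12.50 (median 9.20) in the ChREBPβ line and from 13.88 to 16.87 (median 16.19) in the total line. The groups were separate, and the difference was -6.14 ± 0.70, a level 70.7-fold lower (adjusted p = 3.25e-08). The fast myosin heavy chain Myh2 ranged from 4.86 to 10.75 (median 7.20) against 13.98 to 15.67 (median 14.78). Its level was 141-fold lower in the ChREBPβ line (adjusted p = 3.94e-08). Myh4, the heavy chain of the fastest fibres, overlapped between groups, with 4.36 to 15.00 in the ChREBPβ line and 14.11 to 17.73 in the total line. The spread was wide within the ChREBPβ line, where some arrays held almost no muscle signal and others a moderate one.

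Slow fibre genes followed the same order. Of 10 genes in the slow muscle list, 9 were called lower and 0 higher, beside 14.2% and 24.7% of all genes. The median difference of the list was -4.69. Myl2, the slow and cardiac regulatory light chain, had the lowest difference of all genes at -7.35 ± 0.71 (adjusted p = 1.19e-09). It ranged from 4.97 to 10.29 (median 5.30) in the ChREBPβ line and from 11.07 to 15.44 (median 14.59) in the total line. Sarcolipin, Sln, an inhibitor of the calcium pump of the sarcoplasmic reticulum, ranged from 4.29 to 6.89 (median 4.55) against 10.18 to 14.75 (median 12.09). Its difference was -7.33 ± 0.44 (adjusted p = 3.50e-13), and it was well above background on 3 of the 8 ChREBPβ-line arrays. Cox6a2 and Ckmt2, which encode muscle forms of a cytochrome oxidase subunit and of mitochondrial creatine kinase, were 109-fold and 94.9-fold lower.

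Genes that regulate muscle formation were lower as well. In this list 7 of 8 genes were called lower and 0 higher, beside 14.2% and 24.7% of all genes. Myogenin, Myog, ranged from 4.34 to 5.14 in the ChREBPβ line and was at least 6.57 (median 7.84) in the total line, a difference of -3.42 ± 0.34 (adjusted p = 1.81e-09). Myf6 differed by -4.55 on the log2 scale, and Chrna1, the muscle acetylcholine receptor subunit, by -3.94. Musk, the kinase that organises the neuromuscular junction, was not well above background on any ChREBPβ-line array, and its level was at least 2.60-fold lower there. The embryonic myosin heavy chain Myh3 was likewise not well above background on any ChREBPβ-line array and was at least 17.6-fold lower (adjusted p = 1.27e-07). H19, an imprinted RNA abundant in developing tissue and in muscle, ranged from 6.06 to 8.45 against 11.70 to 14.40, a difference of -5.97 ± 0.35 (adjusted p = 2.86e-13).

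**Figure D1:**
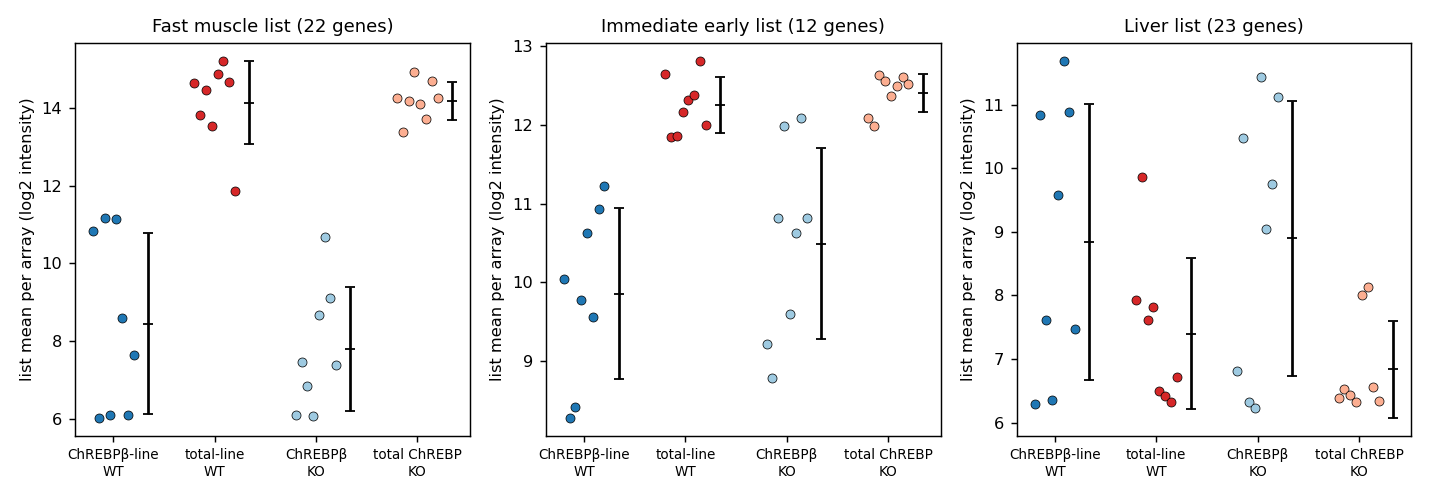
Mean log2 intensity per array of the fast muscle, immediate early and liver lists (y axes) in the 4 groups of 8 arrays (x axes); points are arrays and bars are the mean ± SD. The fast muscle mean reached at most 11.2 in ChREBPβ-line WT and was at least 11.9 in total-line WT, while the liver mean overlapped between the groups.

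The muscle signal separated the lines in WT and in KO arrays. The mean of the fast muscle list ran from 6.04 to 11.2 over the 8 ChREBPβ-line WT arrays and from 11.9 to 15.2 over the 8 total-line WT arrays. It ran from 6.10 to 10.7 in ChREBPβ KO and from 13.4 to 14.9 in total ChREBP KO. The WT difference was -7.96, -4.98, -8.53 and -4.40 in wash batches 1 to 4, with 1 to 3 ChREBPβ-line and 2 total-line arrays in each. In bulk tissue, fewer muscle cells in the sample and less muscle RNA per cell cannot be told apart.

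Liver transcripts varied widely from array to array within each line. Of 23 liver genes, 3 were called higher and 0 lower, beside 24.7% and 14.2% of all genes. All 23 had a positive difference, and 0 were separate between the groups, against 9.45% of all genes. The list mean ran from 6.29 to 11.7 in the ChREBPβ line and from 6.32 to 9.86 in the total line. Albumin, Alb, ranged from 5.26 to 15.37 (median 11.47) against 5.67 to 13.41 (median 8.63), and its difference of 2.09 ± 1.61 did not pass the test (adjusted p = 0.318). The called genes were Apoa2, 1.52 higher, Hrg, 1.23 higher, and Kng1, 0.59 higher. The number called rested on single arrays, and fell to 1 without any of ChREBPβ-line replicates 2, 6 or 7 or total-line replicates 5 or 6. It rose to 8 without ChREBPβ-line replicate 4 or total-line replicate 2, and to between 6 and 7 without ChREBPβ-line replicates 1, 3 or 8. In wash batches 1 and 2 alone 0 of the liver genes were called higher, and in wash batches 3 and 4 alone 18 were. In the KO arrays 17 of the 23 were called higher in the ChREBPβ line and 0 lower, with a median difference of 2.03. Of all 24521 genes, 6935 were called higher and 5400 lower there.

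Clock genes differed between the lines, but mainly in part of the arrays. Of 13 genes of the evening list, which peak around dusk, 10 were called higher in ChREBPβ-line WT and 1 lower. Of 6 genes of the morning list, 4 were called lower and 1 higher. Over all genes, 24.7% were called higher and 14.2% lower. The motif that Arntl and Clock bind is known as the E-box, CACGTG. It was found in the window from 250 bases before to 50 bases after the start of 4 of the 11 evening genes with a RefSeq promoter (build GRCm38.p6), against 8.09% of all 27025 gene symbols in that table. Of the 5 morning genes with a promoter, 1 held it, Cry1. The letters read the same on both strands, and a match is a description of sequence only. For these 4 genes, 1 match each is shown here with its neighbouring bases, the E-box in capitals, because these genes are textbook clock outputs or repressors.
Tef, chr15:81802534-81802563, plus strand: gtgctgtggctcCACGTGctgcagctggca
Per1, chr11:69098771-69098800, plus strand: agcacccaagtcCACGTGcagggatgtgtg
Ciart, chr3:95882327-95882356, minus strand: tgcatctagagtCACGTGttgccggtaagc
Bhlhe41, chr6:145865556-145865585, minus strand: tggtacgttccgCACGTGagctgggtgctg

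These E-box genes did not move as 1 group. Tef, a transcription factor of the clock output, was 0.96 ± 0.19 higher in the ChREBPβ line (adjusted p = 0.00013), and Ciart, a repressor of Arntl, was 1.12 ± 0.30 higher (adjusted p = 0.00353). Per1 went the other way, from 10.84 to 11.60 (median 11.23) in the ChREBPβ line and from 12.05 to 13.02 (median 12.43) in the total line. Its groups were separate, with a difference of -1.26 ± 0.22 (adjusted p = 4.05e-05). Bhlhe41 differed by 0.28 (adjusted p = 0.101).

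Per3, the period gene with the largest difference, ranged from 8.73 to 11.04 (median 10.27) in the ChREBPβ line and from 7.55 to 8.22 (median 7.85) in the total line. It was 4.76-fold higher (adjusted p = 1.31e-06), the highest called difference among the genes named here whose groups were separate. In KO arrays Per3 differed by 0.54 and was not called (limma adjusted p = 0.159). Dbp, an output of the clock, was 1.85 ± 0.49 higher (adjusted p = 0.0029). Arntl, the activator, differed by -1.02 (adjusted p = 0.0164), and Nfil3, the repressor that opposes Dbp, by -1.16 (adjusted p = 0.00175).

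The clock differences did not hold in all wash batches. The evening list mean minus the morning list mean was 3.02 to 3.25 in the 4 ChREBPβ-line arrays of wash batches 1 and 2, and 1.23 to 1.77 in the 4 of batches 3 and 4. In total-line WT it was 0.67 to 1.52 over all batches. Total ChREBP KO arrays had 1.68 to 2.59, above every total-line WT array. In a fit that kept batches 1 and 2 apart from batches 3 and 4, Arntl differed by -2.16 in batches 1 and 2 (adjusted p = 8.22e-06) and by 0.11 in batches 3 and 4 (adjusted p = 0.837). The difference between these values was itself called, at -2.27 (adjusted p = 0.0484), as for 9 of the 24521 genes tested. This split of the batches was chosen after seeing the data, so the call is not an independent test of it. Dbp was 3.21 higher in batches 1 and 2 and 0.50 higher in batches 3 and 4, where it did not pass the test (adjusted p = 0.51). For Dbp the difference between these values was not called (limma adjusted p = 0.0894). In batches 3 and 4 alone, 1 of 13 evening genes was called higher. That gene was Per3, at 1.29 (adjusted p = 0.0253), and Per1 was again called lower, at -1.22 (adjusted p = 0.0125). Between batches 1 and 2 and batches 3 and 4, limma called 1231 of the 24521 genes within ChREBPβ-line WT and 0 within total-line WT. At an unadjusted p under 0.05 the counts were 5392 and 1286. In ChREBPβ KO arrays the evening minus morning value was 1.49 to 2.72 in batches 1 and 2. It was 0.87 to 2.72 in batches 3 and 4, so these arrays did not split by batch in the same way. In ChREBPβ-line WT, batches 1 and 2 held replicates 1 to 4, and batches 3 and 4 held replicates 5 to 8. Wash batch cannot be told apart there from replicate number, or from any day or hour of collection that went with it.

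**Figure D2:**
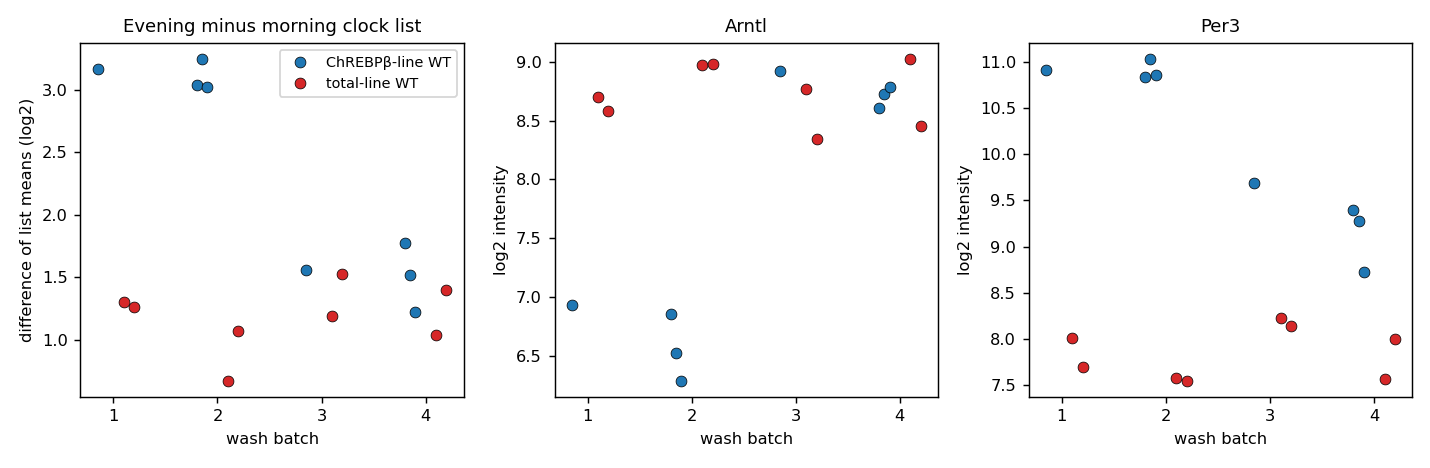
Evening minus morning clock list mean, Arntl and Per3 (y axes, log2) by wash batch (x axes) for the 16 WT arrays; each point is 1 array. Arntl lay at or below 6.93 in the ChREBPβ line in batches 1 and 2 and within the range of the total line in batches 3 and 4, while Per3 was higher in the ChREBPβ line in all 4 batches.

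Immediate early and heat shock genes, which are induced within minutes of stimulation or stress, were lower in ChREBPβ-line WT. Of 12 genes, 11 were called lower and 0 higher, with a median difference of -2.20, and 5 were separate between the groups. Over all genes, 14.2% were called lower, 24.7% higher, and 9.45% were separate. Fos, a subunit of the AP-1 transcription factor, ranged from 5.81 to 12.26 (median 9.59) in the ChREBPβ line and from 12.42 to 13.99 (median 13.29) in the total line. It was 20.6-fold lower (adjusted p = 0.000234). Fosb was 18.6-fold lower, and Atf3, a stress-induced repressor, 6.45-fold lower, both with separate groups. The inducible chaperones Hspa1a and Hspa1b were 13.3-fold and 10.03-fold lower. Ier2 differed by -0.61 and did not pass the test (adjusted p = 0.104). The list mean was lower in the ChREBPβ line in every wash batch, at -3.73, -2.67, -1.79 and -1.72 in batches 1 to 4. In batches 3 and 4 alone, 7 of the 12 were called lower.

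Of 14 genes known to differ between mouse substrains, 5 were called higher and 1 lower, beside 24.7% and 14.2% of all genes, so the list gave calls about as often as genes at large. Nnt, the mitochondrial transhydrogenase that is partly deleted in C57BL/6J, ranged from 7.47 to 7.75 (median 7.67) in the ChREBPβ line and from 8.26 to 9.86 (median 9.03) in the total line. The groups were separate, the difference was -1.43 ± 0.17 (adjusted p = 4.70e-08), and the second probe of Nnt was not called. The KO arrays gave -1.38 (adjusted p = 3.08e-08). Akr1e1 was 0.31 higher and Alad, of haem synthesis, 0.39 higher, both with separate groups. Wdfy1, Entpd4 and Glo1 did not pass the test.

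The KO arrays, from other mice of the same lines, were then compared in the same fit. Of the 24521 genes, 50.3% were called there, 6935 higher and 5400 lower in the ChREBPβ line. In 5524 genes, or 22.5%, both comparisons were called the same way, and in 781 they were called in opposite ways. For 747 genes, or 3.05%, all 16 arrays of one line lay apart from all 16 of the other, 306 higher and 441 lower in the ChREBPβ line. These were spread over the genome, and the highest share in a 10 Mb window with at least 20 genes was 8 of 74. Of the 12 immediate early genes 9 were called lower in the KO arrays, while of the 13 evening clock genes 1 was called higher and 4 lower. In the lipogenesis list 4 of 18 genes were called higher in WT arrays and 17 of 18 in KO arrays. The KO arrays also differ by deletion, and its part in these calls was not tested.

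**Figure D3:**
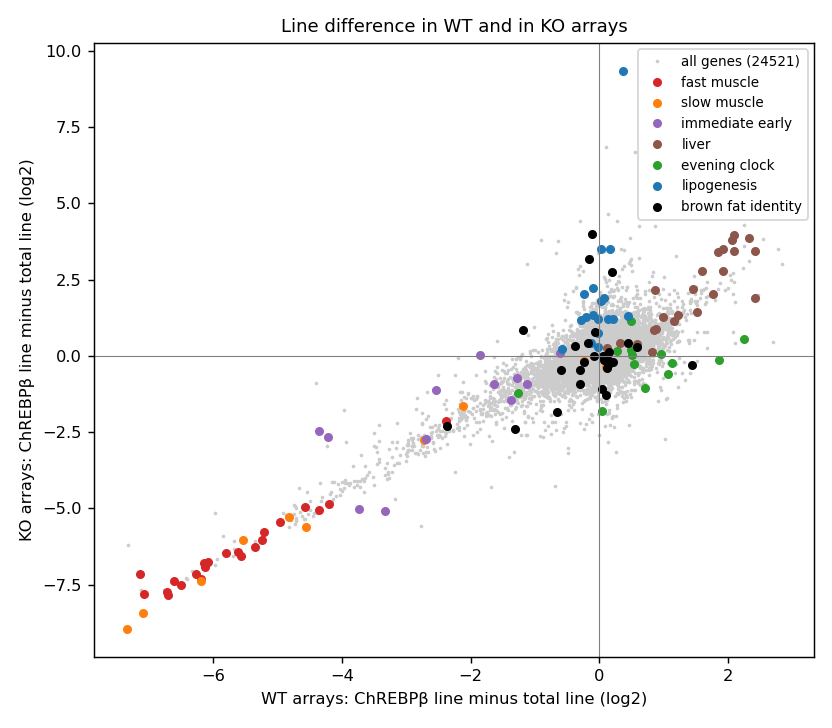
Difference between the lines in KO arrays (y axis, log2) against that in WT arrays (x axis, log2) for 24521 genes, with 7 gene lists coloured. Muscle genes lie far down to the left in both comparisons, while lipogenesis genes lie near 0 in WT arrays and mostly above 0 in KO arrays.

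Among the genes that separated all 16 arrays from the other 16, those higher in the ChREBPβ line were of several kinds. Aplnr, the apelin receptor, ranged from 8.10 to 9.73 (median 9.26) against 7.27 to 8.03 (median 7.66) in WT arrays. The difference was 1.42 ± 0.19 (adjusted p = 6.48e-07), and 2.09 in KO arrays. Lctl, a lactase-like protein, was 1.37 higher in WT and 2.05 higher in KO arrays. Mllt4, which encodes the junction protein afadin, ranged from 7.84 to 8.46 against 6.99 to 7.39, a difference of 1.00 ± 0.09 (adjusted p = 2.62e-10). Fsd2, Ifnlr1, Fam84b and Prrt4 were between 1.01 and 1.34 higher in WT arrays. Mfsd2a, a lipid transporter, differed by -2.78 in WT arrays (adjusted p = 7.57e-08) and by -5.58 in KO arrays.

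Other genes were higher in the ChREBPβ line in the WT comparison. Npr3, the natriuretic peptide clearance receptor, ranged from 11.72 to 12.20 (median 11.89) against 9.87 to 11.27 (median 10.60), and was 1.38 ± 0.14 higher (adjusted p = 3.66e-09). Fam20c, a secretory pathway kinase, was 1.55 higher. Ripk4, Nts, Sh3gl3, E430016F16Rik and Hmga2-ps1 were between 1.36 and 1.52 higher. Of these, Nts was called in the opposite direction in KO arrays, at -0.56 (adjusted p = 0.0202), and Ripk4 was not called there.

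**Figure D4:**
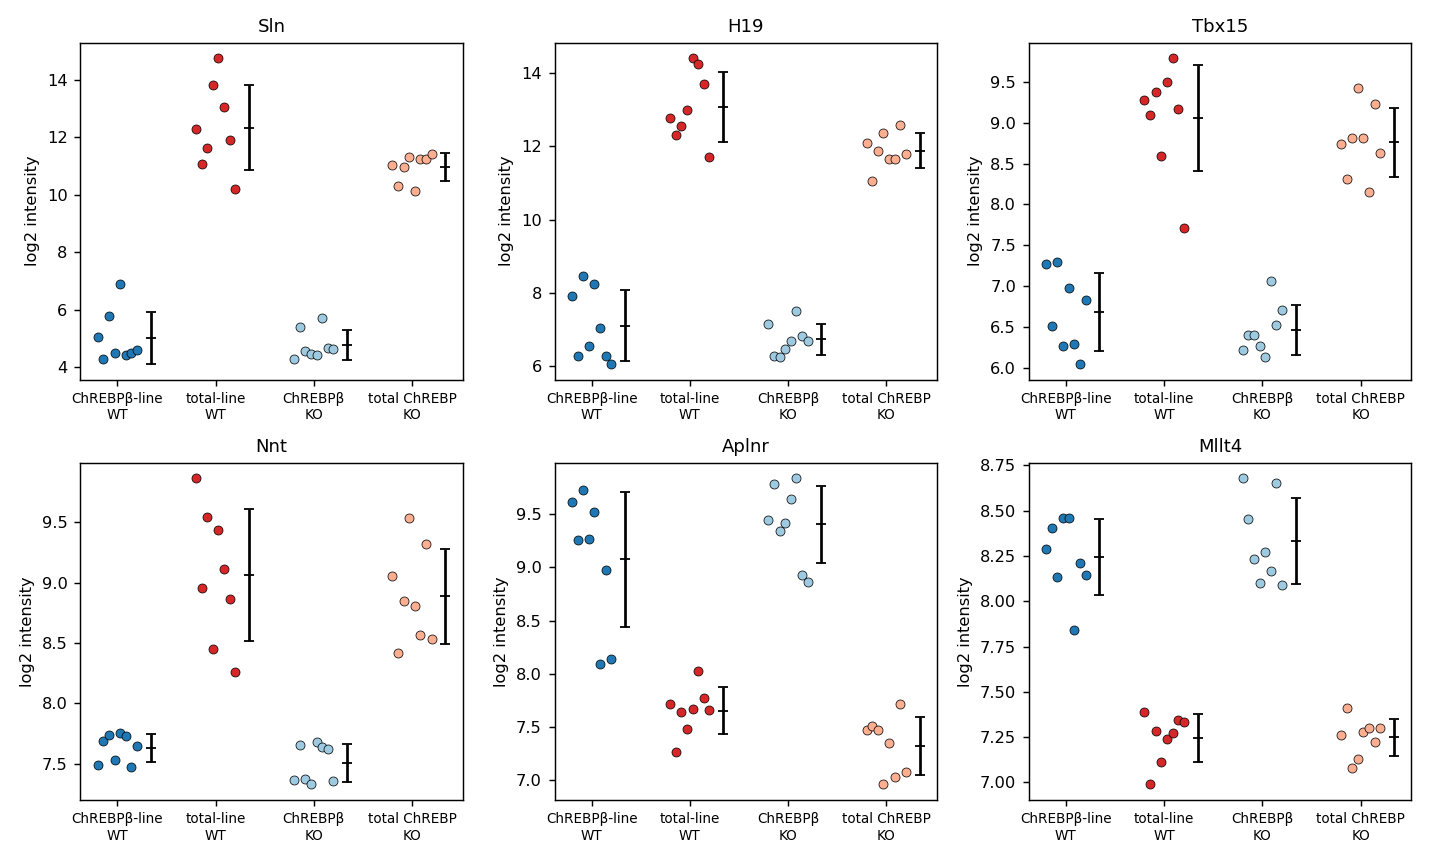
Log2 intensity (y axes) of Sln, H19, Tbx15, Nnt, Aplnr and Mllt4 in the 4 groups (x axes); points are arrays and bars are the mean ± SD. In each panel all 16 arrays of the ChREBPβ line lie apart from all 16 of the total line.

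Genes that identify brown fat differed little in comparison with muscle genes. Of 29 tested, 6 were called higher and 7 lower, beside 24.7% and 14.2% of all genes. The median difference was 0.05, the same as over all genes. Ucp1 ranged from 18.25 to 18.53 (median 18.49) in the ChREBPβ line and from 18.51 to 18.62 (median 18.54) in the total line, and its difference of -0.09 ± 0.04 did not pass the test (adjusted p = 0.095). Cidea, of lipid droplets, differed by 0.05 (adjusted p = 0.538). Both lay near the top of the intensity range, where quantile normalisation leaves little room for differences, and neither was called under either 75th percentile scaling. Prdm16 was 0.45 higher (adjusted p = 0.00218), and Nrg4, a secreted factor of brown fat, 0.58 higher. Both were called in batches 1 and 2, at 0.76 and 0.85, and not in batches 3 and 4, at 0.15 (adjusted p = 0.52) and 0.31 (adjusted p = 0.146). For neither was the difference between these values itself called (limma adjusted p = 0.159 and 0.23). S100b, which brown adipocytes secrete onto sympathetic nerves, was 1.44 ± 0.18 higher (adjusted p = 2.20e-07), with ranges of 12.80 to 14.20 and 11.52 to 13.10.

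Other brown fat genes were lower in the ChREBPβ line. Ppargc1a, the coactivator of mitochondrial genes, ranged from 11.20 to 12.65 (median 11.80) against 11.94 to 13.17 (median 12.51), a difference of -0.66 ± 0.18 (adjusted p = 0.00392). Dio2, which activates thyroid hormone, differed by -1.32 (adjusted p = 0.00214), and Elovl3, which elongates fatty acids in brown fat, by -1.18 (adjusted p = 0.0199). Ppargc1a and Dio2 were called in batches 1 and 2 and not in batches 3 and 4, at -0.23 and -0.48. Elovl3 was called in batches 3 and 4 at -2.10 and not in batches 1 and 2, at -0.26. For Ppargc1a, Dio2 and Elovl3 the difference between these values was not itself called (limma adjusted p = 0.195, 0.181 and 0.218). Tbx15, a transcription factor of brown fat and of muscle, was the only gene of this list with separate groups, from 6.05 to 7.30 against 7.71 to 9.79. It was 5.18-fold lower (adjusted p = 1.08e-09). Without ChREBPβ-line replicate 5, 4 genes of the list were called lower in place of 7, and in batches 3 and 4 alone 1 was called higher and 4 lower.

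Adipocyte and metabolic genes differed by small amounts, and most of these lists were called about as often as all genes, of which 24.7% were higher and 14.2% lower. Of 18 adipocyte genes 5 were called higher and 2 lower, and adiponectin, Adipoq, differed by 0.02 (adjusted p = 0.841). The hormone-sensitive lipase gene Lipe was 0.64 higher and the lipid droplet gene Plin4 0.48 higher. In the lipogenesis list 4 of 18 were called higher and 1 lower. Srebf1, its main regulator beside ChREBP, was 0.44 higher, and Elovl5 was at -0.58. Fatty acid synthase, Fasn, differed by 0.02 (adjusted p = 0.889), near the top of the intensity range. Of 17 genes of fatty acid oxidation, 8 were called higher and 0 lower. Etfb, which passes electrons to the respiratory chain, ranged from 17.15 to 17.32 against 16.64 to 17.04, a difference of 0.34 ± 0.05 (adjusted p = 3.32e-06). Hadh was 0.35 higher. In the oxidative phosphorylation list 7 of 24 were called higher and 1 lower. The KO arrays, which also differ by deletion, gave the other direction. There 10 of the 17 fatty acid oxidation genes were called lower and 3 higher. Of the 24 oxidative phosphorylation genes 18 were lower and 0 higher. Over all 24521 genes, 5400 were called lower and 6935 higher in KO arrays. The fatty acid oxidation list mean was 15.675 in total-line WT and 16.05 in total ChREBP KO, against 15.82 and 15.90 in the ChREBPβ line. For oxidative phosphorylation the means were 16.54 and 16.825, against 16.59 and 16.66. The part of the deletions in this was not tested. Gamt, which makes creatine, was 1.74-fold higher with separate groups (adjusted p = 1.75e-07).

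Lists of white fat and of other cell types were read against the same shares, 24.7% of all genes called higher and 14.2% lower. Of 10 white fat genes 1 was called higher and 5 lower, with leptin, Lep, 0.33 higher and angiotensinogen, Agt, at -1.95. In the matrix list 9 of 10 genes were called lower, with a median of -0.89. In KO arrays 7 were called lower, against 5400 of all 24521 genes. Col1a1, the collagen chain, ranged from 10.54 to 11.44 (median 10.90) against 11.11 to 13.76 (median 12.50), a difference of -1.47 ± 0.24 (adjusted p = 1.08e-05). Of 9 macrophage genes 6 were called lower and 1 higher, and Mrc1, the mannose receptor, differed by -1.14 ± 0.13 with separate groups (adjusted p = 4.01e-08). In KO arrays, Mrc1 differed by -0.16 and was not called. Of 8 endothelial genes 5 were called higher and 0 lower, and Cdh5, the endothelial cadherin, separated all 16 arrays of each line at 0.45 (adjusted p = 8.14e-07). Of 10 lymphocyte genes 4 were called higher, which for so few genes is not far from the share of all genes. Among them, the B cell gene Cd79b was called in batches 1 and 2 and not in batches 3 and 4. The difference of Cd79b between these batch pairs was not itself called (limma adjusted p = 0.1535).

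The lines were then compared with each array's mean of the fast muscle list and of the liver list added to the fit as covariates. Since the muscle means of the WT groups did not overlap, the adjustment extends the slope seen within groups beyond the range of either line. In this fit 12.8% of genes were called, 8.10% higher and 4.75% lower, and 2964 of these 3150 were called the same way without the covariates. Sln still differed by -5.27 (adjusted p = 9.67e-06), H19 by -3.67 (adjusted p = 1.28e-06) and Has1, a hyaluronan synthase, by -3.51. Of the 10 slow fibre genes 8 were called lower, with a list median of -2.21. Of the 8 genes that regulate muscle formation 5 were called lower, with a median of -1.03. The covariates thus did not take up all muscle signal, and whether other calls in this fit go with the remainder was not tested. Some fast fibre genes, which make up the covariate themselves, turned positive, such as Myh4 at 3.45. Of the 29 brown fat genes, 1 was called higher, S100b at 1.40, and 5 lower. Among these, Dio2 was at -2.72 (adjusted p = 0.000836), Ppargc1a at -1.47 (adjusted p = 0.000263), Kcnk3, a potassium channel of brown adipocytes, at -0.60 and Tbx15 at -0.99. Ucp1 was at -0.17 (adjusted p = 0.149). Aplnr at 2.03, Lctl at 1.72, Npr3 at 1.38 and Per3 at 2.12 were also called. Of the lists of 12 immediate early and 13 evening clock genes, 5 were called lower and 3 higher, respectively. The metabolic and cell type lists gave fewer calls than without the covariates. In the fatty acid oxidation list 2 genes were called higher and in the oxidative phosphorylation list 0. In the matrix list 1 gene was called lower, with a median of -0.67, and in the macrophage list 1, with a median of -0.35. In the endothelial list 3 of 8 were called higher. Mlxipl was at 0.16 and not called (adjusted p = 0.416), and its neighbour Fzd9 was at -2.23 (adjusted p = 0.000238). Within groups Fzd9 rose with the fast muscle mean, at a slope of 0.28 against a median of -0.004 over all genes.

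**Figure D5:**
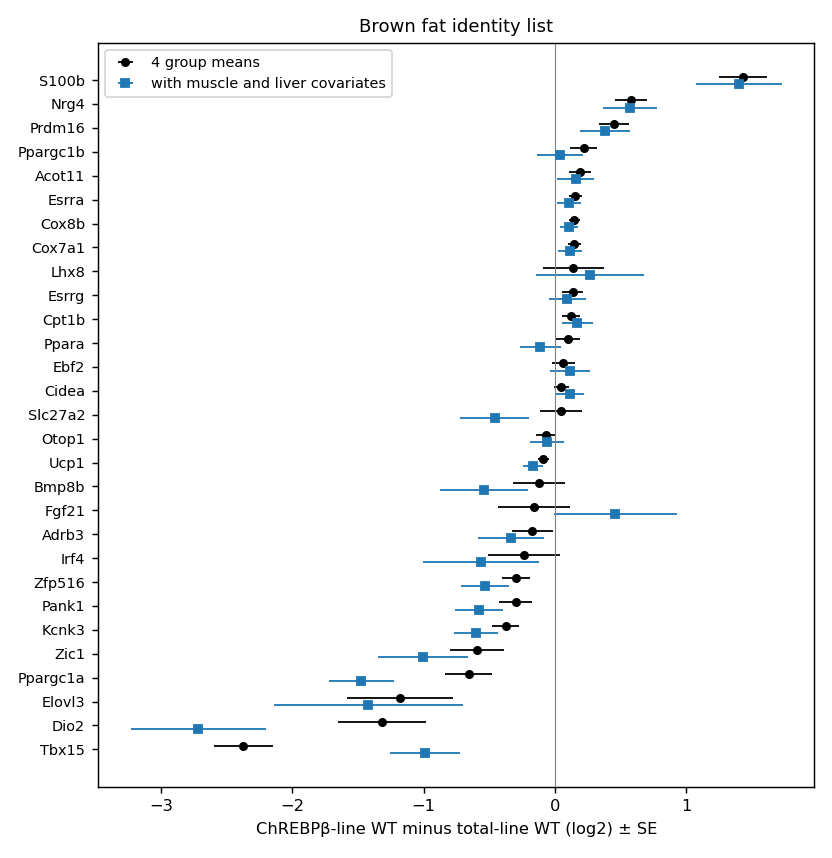
Difference between ChREBPβ-line WT and total-line WT (x axis, log2 ± SE, n = 8 and 8) for the 29 tested genes of the brown fat identity list (y axis), fitted with 4 group means alone or with muscle and liver covariates. Most genes lie within 0.5 of 0, S100b lies above 1 in both fits, and Dio2 and Ppargc1a lie further below 0 with the covariates.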

How the data were processed

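The deposited log2 table was used. Per the study's methods, the authors dropped spots not detected above background in 26 of 32 arrays or in 6 arrays of any group, quantile normalised them and took the median of replicated probes. The deposited scanner files hold spot intensity from Agilent Feature Extraction 10.10.1.1, and served for detection and for the alternatives. The table was matched by taking log2 before quantile normalisation (mean difference 0.00298).

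Each of 37304 probes was fitted with limma 3.58.1 in R 4.3.3 as 4 group means, using all 32 arrays. P values are two-sided and adjusted over all probes. The labels do not say that each array is a separate mouse, so p values measure the spread between arrays, whose number limits the precision. Where no array of a group had a signal well above background, the fold is a bound. The fit was tested on simulated data. The members and lists were chosen with earlier results of these data known. Genes named are list members, neighbours of Mlxipl, and the 10 or 8 highest and lowest of those with separate WT groups, with all 16 arrays of each line apart, or called with covariates, and a few of them are not reported here. The other fits are wash batch, slide and replicate blocks, array weights, other scalings, filters and thresholds, covariates, and leaving out each array. Wash batches 1 and 2 or 3 and 4 were also fitted alone, or kept apart in the same fit. That split was chosen after seeing the data.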

Additional observations from a re-analysis of the deposited data

Results flagged for a closer look

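Arrays that stood apart from the other 7 of their group, by the gap to the nearest array over the range of the group, are given with their log2 level. Among 296 combinations of gene and group 26 stood apart, or 8.78%, where chance gives about 1 in 20. For ChREBPβ-line WT replicate 2 this was Plin4 (lowest, 14.85, next array 15.31). For ChREBPβ-line WT replicate 5 this was Alad (highest, 13.68, next array 13.48), Ucp1 (lowest, 18.25, next array 18.44) and Kcnk3 (lowest, 12.54, next array 12.93). For ChREBPβ-line WT replicate 6 this was Kdr (lowest, 12.56, next array 12.88) and Fam84b (lowest, 8.62, next array 8.97). For ChREBPβ-line WT replicate 7 this was Ech1 (highest, 16.60, next array 16.43) and Sdhc (highest, 14.87, next array 14.67). For ChREBPβ-line WT replicate 8 this was Per2 (lowest, 9.38, next array 10.23), Egr2 (highest, 10.29, next array 8.03) and Ccl21a (lowest, 5.16, next array 7.75). For total-line WT replicate 2 this was Apoa2 (highest, 12.78, next array 11.50), Hrg (highest, 7.40, next array 6.10), Alad (lowest, 12.73, next array 13.03), Agt (highest, 11.73, next array 10.20) and Fam20c (lowest, 7.94, next array 8.77). For total-line WT replicate 3 this was Hmga2-ps1 (highest, 7.62, next array 7.29). For total-line WT replicate 7 this was Fosb (highest, 12.81, next array 12.04). For total-line WT replicate 8 this was Myh4 (lowest, 14.11, next array 16.38), Pvalb (lowest, 12.37, next array 14.95), Myl2 (lowest, 11.07, next array 13.47), Myoz2 (lowest, 8.91, next array 10.41), Cox6a2 (lowest, 12.74, next array 14.34), Myh8 (lowest, 14.92, next array 16.66), Cd79b (highest, 6.98, next array 6.67) and Ccl21a (lowest, 5.38, next array 7.34). The muscle genes of total-line replicate 8 and the liver genes of total-line replicate 2 belong to lists whose means were also extreme on these arrays, at 11.9 for fast muscle and 9.86 for liver.

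The WT line difference of Arntl in wash batches 1 and 2 minus that in batches 3 and 4 was -2.27 (adjusted p = 0.0484, limma). This split was chosen after seeing the data.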

How the results depend on the processing

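Without covariates, and apart from the settings named here, the counts listed stayed within 1.5 times of those reported. Leaving out each WT array gave 10535 to 11251 genes called, 2239 to 2479 at 1.5-fold or more, 12231 to 12433 in the KO comparison and 5230 to 5512 called the same way in both. The fast muscle list kept 22 genes lower in each, with 8 to 11 evening clock genes higher, 10 to 12 immediate early genes lower, 1 to 8 liver genes higher, and 5 to 8 brown fat genes higher and 4 to 8 lower. The processed signal scaled to its 75th percentile gave 3766 genes at 1.5-fold or more. The liver count was 7 with the wash batch block, 6 with the replicate block, and 1 with the slide block, array weights or an adjusted p under 0.01, at which 4 brown fat genes were lower. The replicate number correlated at -0.08 to 0.36 between the WT groups, and 2 of 8 ChREBPβ-line arrays correlated best with their own number, so the number is not taken to pair mice. With the replicate block 11491 genes were called, and all 148 named genes kept their call. Wash batches 1 and 2 alone gave 0 liver genes. Batches 3 and 4 alone gave 6077 genes, 2594 the same way, 18 liver, 1 evening clock, 7 immediate early, and 1 and 4 brown fat genes, with Arntl at 0.11 and Usp2 at -0.67.

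With the muscle covariate 3629 genes were called, 6195 in KO and 1767 the same way, with 8 fast muscle, 0 liver, 2 evening clock, 3 immediate early and 1 higher brown fat genes. The values that turned sign were Myh4 3.81, Myh8 3.16, Tnni2 1.89, Tnnc2 1.41, Tnnt3 1.40, Pvalb 1.39, Ttn 0.27 and Mest 0.22. With muscle and liver the counts were 3890, 6289 and 1887, and 7, 0, 3, 5 and 1, with Myh4 3.45, Myh8 2.86, Tnni2 1.69, Pvalb 1.36, Tnnc2 1.30, Tnnt3 1.28, Ttn 0.26 and Mest 0.25. With the clock added they were 2098, 6594 and 1145, with 1241 at 1.5-fold or more, and 8, 0, 0, 0 and 0, with 4 brown fat genes lower. Signs then turned for Myh4 4.23, Myh8 3.53, Tnni2 1.97, Pvalb 1.53, Tnnc2 1.52, Tnnt3 1.40, Mest 0.48, Egr1 0.43, Arntl 0.29, Ttn 0.065, Hrg -0.10 and Ciart -0.28. The fast fibre genes are their own covariate, and the cause of the other changes was not tested. Signal over background limits genes such as Sln and Musk in the ChREBPβ line.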
